A study of Mus musculus with 8 samples.

Results

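The genes described here code for proteins of the spliceosome and for SR proteins. Their members were all non-control features on the array whose gene name began with Sf3a, Sf3b, Srsf, Prpf or Lsm and a number, with Snrp, or with U2af1 or U2af2. That rule gave 123 probes for 61 genes, of 56605 probes and 27248 gene names in all. The 61 symbols all stood in the RefSeq gene table, and the 97 probes whose accession could be matched there carried the same symbol. RNA came from C2C12, an established line of mouse myoblasts, harvested while proliferating at passage 10. The 4 control samples were transfected with Lipofectamine 2000 and negative control GapmeRs, short antisense oligonucleotides with locked bases that direct RNase H to an RNA. The 4 Pvt1-silenced samples received the same reagent with GapmeRs against the long noncoding RNA Pvt1; the protocol names 2 such GapmeRs, and the labels do not say which was used in which sample. The labels call the samples of each group biological replicates of this single cell line, and each was hybridised to 1 one-colour array.

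Pre-mRNA splicing removes introns from new transcripts. The Sm proteins form a ring on the small nuclear RNAs and the Lsm proteins form related rings, U2AF reads the 3′ splice site, SF3A and SF3B are parts of the U2 particle that holds the branch point, and the PRP factors drive assembly and rearrangement of the particle. SR proteins bind exons and recruit these factors; they are phosphorylated by Clk and Srpk kinases and carried into the nucleus by Tnpo3. Many SR protein genes are known to control their own messages through exons that lead to decay.

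Values below are quantile-normalized log2 intensities, and a difference is the mean of the silenced arrays minus the mean of the controls on that scale. A gene was read at the brightest of its probes that could be tested, and "rose" or "fell" means an adjusted p under 0.05 in limma over all tested probes. Of the 123 probes 107 could be tested, which left 60 of the 61 genes: Srsf12 had no probe bright enough. No level of one probe is set against that of another. On the brighter of the 2 tested probes for the targeted RNA, Pvt1, the controls read 9.65, 9.79, 10.31 and 9.70, and the silenced arrays 7.09, 6.69, 7.85 and 6.39. The groups did not overlap, and the silenced mean was 13.8% of the control mean (log2 difference -2.86, SE 0.32, limma adjusted p = 0.000682, n = 4 and 4). The other Pvt1 probe was well above background on the 4 control arrays and on 0 silenced arrays. The myoblast markers Myod1, Cdh15, Des, Vim and Pax7 were well above background on all 8 arrays and Myf5 on none. Myod1 had an intensity of 6740 to 13251 in the controls and 2297 to 3504 in the silenced arrays, and Pax7 165 to 193 and 204 to 244. The 6 markers of differentiated muscle on the array summed to 3771 to 4751 and 1995 to 2389. Most of that shift was Acta1, at 2144 to 2923 and 511 to 983. Mylpf was also lower, at 768 to 869 and 538 to 705, and Myog, Myh3, Tnnt3 and Ckm overlapped between the groups. Summed over 12 liver markers the intensity was 1073 to 1833 in the controls and 4978 to 6192 in the silenced arrays; 2 of the 12 were well above background on all control arrays, 7 on all silenced arrays and 4 on no array. Albumin, which defines that list, passed that criterion in every silenced sample and in none of the controls. The 6 pancreas markers, of which Cela1 was well above background on all arrays and the other 5 on no array, summed to 2365 to 3637 in the controls and 4033 to 7919 in the silenced arrays, and the 6 myoblast markers to 108836 to 135281 and 72219 to 94235. The 5 brain markers summed to 2283 to 3387 and 1269 to 2163, nearly all of it Snap25. The 5 blood and immune markers summed to 1034 to 1279 and 1216 to 3941, Ptprc being at 688 to 996 in the controls, at 837 on silenced replicate 2 and at 3138 to 3591 on the other silenced arrays. The part that these shifts have in the results below was not tested. The arrays of 2 samples stood apart: the correlation of control replicate 3 with its own group averaged 0.964, and that of each other control at least 0.981, and on silenced replicate 4 51.6% of spots were positive and significant, against 58.8% to 62.5% on the other 7.

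The probes on which the main findings rest are shown first, as 30 of the 60 bases of each in the order of the scanner files. Those without capitals show the first 30 bases; where capitals appear they mark a poly(A) signal, and the last 30 bases are shown. Each name gives the first base of the probe in its transcript, and positions on the genome are mm9. The first set is U2af2, whose 2 probes lie at chr7:5026338-5026396 and chr7:5030991-5031050 on the plus strand and both fell.
U2af2 968: ttaaaagagctgctgacatcctttgggcct
U2af2 1633: cctcttgaagaagatgggcagaggagtgac
The second set is Sf3a2 (plus strand, chr10:80265585-80265644 and chr10:80267598-80267657) and Prpf4 (plus strand, chr4:62083751-62084306, across an intron, and chr4:62085441-62085500), where the probe nearer the 5′ end fell further.
Sf3a2 401: accggagcaggtcaaggtggaggtgaagaa
Sf3a2 1604: atttgtcctgccttgagcctATTAAAcagc
Prpf4 1459: tgagcctatccatggggacttcttgctcac
Prpf4 2653: gggtgtaccttatgtATTAAAgaacacttc
The third set is Snrpb (minus strand, chr2:130002789-130002848, chr2:130001112-130001171 and chr2:129997387-129997446) and Srsf11 (minus strand, chr3:157689729-157689788, chr3:157680826-157682305 across an intron, chr3:157675744-157675803 and chr3:157674006-157674065), which have several probes along 1 transcript.
Snrpb 185: atcctgcaggacggccgtatcttcatcggg
Snrpb 289: gaactccaaacaagcagaaagggaagagaa
Snrpb 1046: gaagctggtttatAATAAActaagagactg
Srsf11 355: tttgttaagttccatgatccagactcagca
Srsf11 806: agtccctgatttctgccgctattgagccag
Srsf11 1176: atcccctaaaaagcccaggtctcctaaaag
Srsf11 2477: cagtagtatcttatgcacagtgattccatg

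Silencing of Pvt1 left most of these genes short of the threshold. As these are bulk samples, fewer cells of a kind and less RNA per cell cannot be told apart. Of the 60 genes tested 7 fell and none rose by limma, and 18 were lower and 1 higher at an unadjusted p under 0.05, where 20.2% of all genes were lower and 12.5% higher. Described below are 6 of the genes that fell: U2af2, Prpf38b, Srsf5, Srsf2, Sf3b4 and Sf3a2. Among all 15444 genes tested 13.2% fell and 6.59% rose. The share that fell among the members, 11.7%, is thus near that of all genes, while the members held no rise. The median difference was -0.24 over the members and -0.053 over all genes. Groups did not overlap for 16 members, all lower in the silenced arrays; over all genes 16.4% were separated in that direction and 6.67% in the other. Without control replicate 3 the members had 8 falls and 1 rise (13.4% and 8.22% of all genes), and without silenced replicate 4 they had 8 falls and 2 rises, where 16.0% of all genes rose and 12.9% fell. Leaving out any 1 array gave 5 to 8 falls, against 6.88% to 13.4% of all genes; there were 5 without control replicate 2 (7.02%) and without control replicate 4 (6.88%). With the slide row as a block 5 members fell and none rose, against 5.52% and 2.53% of all genes, and within the 2 rows the member median was -0.11 and -0.37, against 0.093 and -0.15 for all genes. These 6 genes were lower in the silenced arrays within each row. At the level of single probes 24 members' probes fell and 1 rose, of 107, against 18.4% and 4.79% of all probes.

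The number of rises depended on the scaling. With each array shifted by its 75th percentile the median of all genes moved from -0.053 to 0.33 and that of the members to 0.25, so that 13 members rose and 5 fell, where 31.9% of all genes rose and 9.79% fell. With cyclic loess the median of all genes was 0.15 and that of the members -0.081; 3 members rose and 9 fell, against 24.4% and 13.5% of all genes. The member median lay below that of all genes under both and in the scaling used; the difference between the medians was -0.073, -0.23 and -0.19 in that order. Of these 6 genes, U2af2, Prpf38b, Srsf5 and Srsf2 passed under all 3 scalings, and Sf3a2 and Sf3b4 did not pass with the 75th percentile shift.

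**Figure D1:**
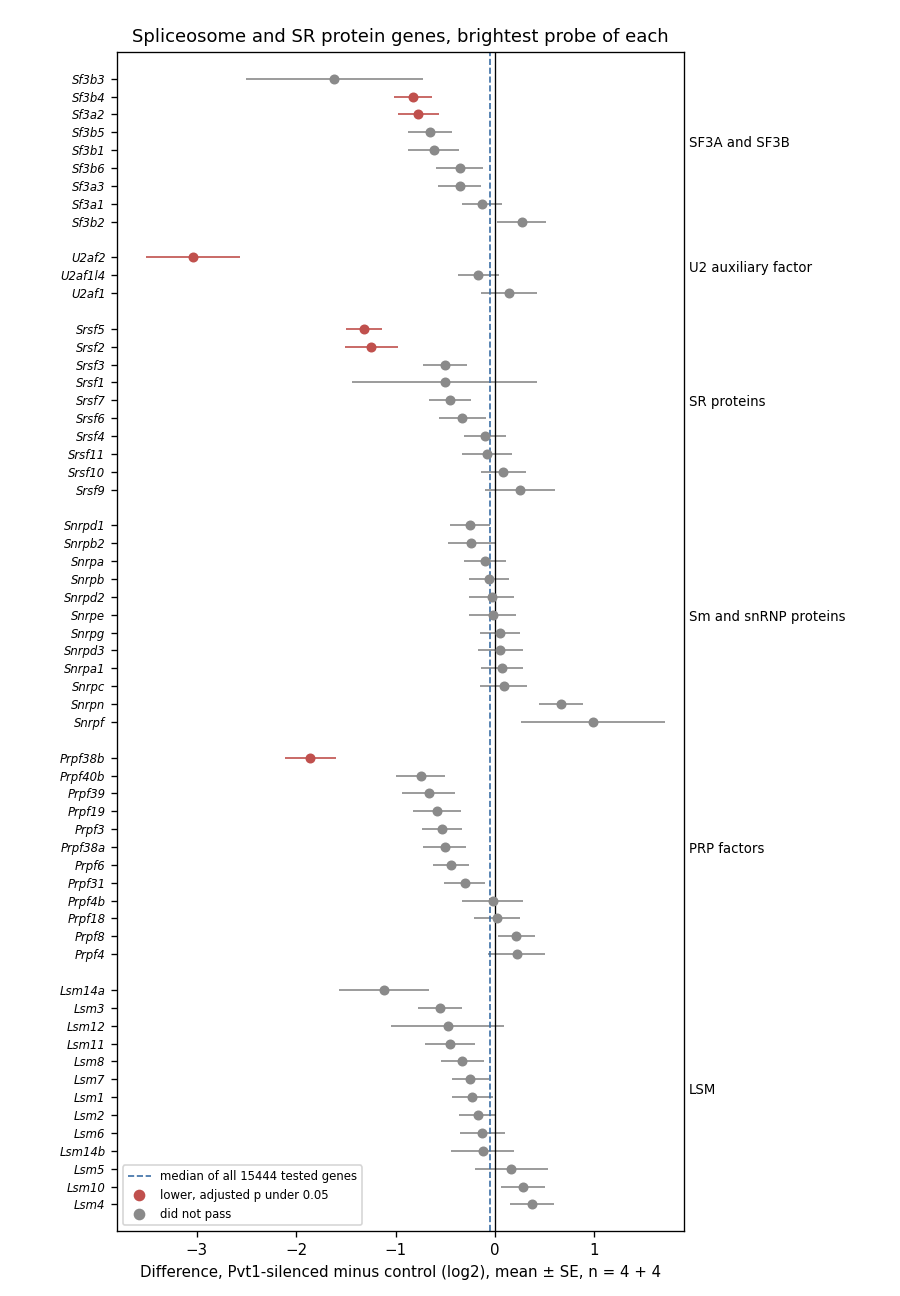
Difference of 59 of the 60 tested genes at its brightest probe, silenced minus control on the log2 scale, with its standard error, ordered within 6 groups of function. The 6 genes in red fell, U2af2 furthest at -3.03, the 12 Sm and snRNP genes run from -0.25 to 0.99, and the dashed line is the median of all tested genes at -0.053.

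U2AF is a dimer in which the large subunit, U2af2, binds the pyrimidine tract and the small subunit, U2af1, the AG at the end of the intron. U2af2 read 11.42, 11.92, 11.83 and 11.65 on the control arrays and 9.16, 9.49, 8.99 and 7.05 on the silenced arrays. All silenced arrays lay more than 1 log2 unit under the lowest control, and the lowest of them was replicate 4. The difference was -3.03 on the log2 scale (SE 0.47, limma adjusted p = 0.00245), or 12.2% of the control mean. Without silenced replicate 4 the difference was -2.52, without control replicate 3 it was -2.97, and within the 2 rows of the slide it was -2.56 and -3.14. The probe nearer the 5′ end, which overlaps the first in no base, read 9.23, 9.99, 8.02 and 9.88 against 6.86, 6.61, 5.88 and 6.07 (difference -2.92, SE 0.43, adjusted p = 0.00201), with 2 of the silenced arrays well above background. Both probes of the large subunit fell. Their difference from each other was 0.11 (SE 0.57, adjusted p = 0.879), an error too wide to show that they fell alike, and the size of the second fall is uncertain where the silenced arrays were not well above background. The call at the brightest probe was lost by the methods' t-test (adjusted p = 0.0652).
The small subunit did not pass. U2af1 read 14.88, 14.91, 13.95 and 15.09 in the controls and 15.02, 14.78, 15.08 and 14.51 in the silenced arrays (difference 0.14, SE 0.28, adjusted p = 0.761). The groups overlapped, control replicate 3 being the lowest of all, and without it the difference was -0.11; with the 75th percentile shift it was 0.70 and passed (adjusted p = 0.0214). Its relative U2af1l4 gave -0.17 (SE 0.21, adjusted p = 0.607).

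**Figure D2:**
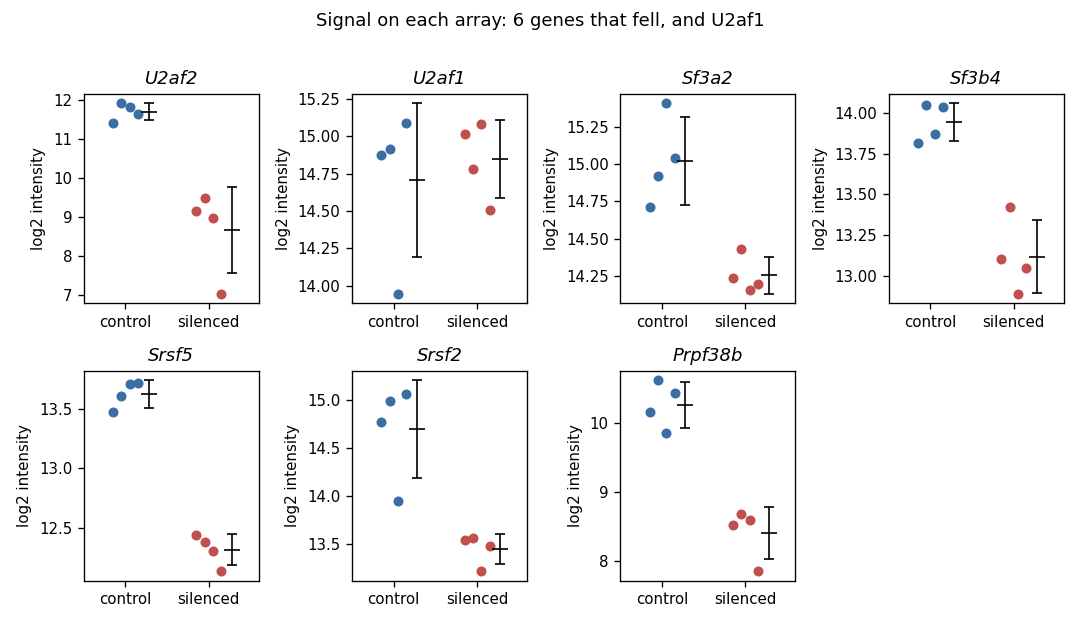
Quantile-normalized log2 intensity of the brightest probe on each of 4 control and 4 silenced arrays, with the mean and SD of each group as the black bar; the vertical axes differ and do not start at 0. In the 6 genes shown that fell every silenced array lies under every control array, whereas for U2af1, the partner of U2af2, the groups overlap.

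Of the 9 genes of SF3A and SF3B, 2 fell and 7 did not pass, with a median difference of -0.62; for 6 of the 9 the groups did not overlap, where 13.2% of all genes fell and 16.4% were separated downward. Sf3b4, which contacts the pre-mRNA near the branch point, read 13.82, 14.05, 13.87 and 14.03 in controls and 13.11, 13.43, 12.89 and 13.05 in silenced arrays. That is a fall of 0.82 on the log2 scale (SE 0.19, limma adjusted p = 0.0145). With the 75th percentile shift it was -0.26 and did not pass (adjusted p = 0.212), nor with the slide row as a block (adjusted p = 0.0651).
Sf3a2, a subunit of SF3A, read 14.71, 14.92, 15.41 and 15.05 against 14.24, 14.43, 14.15 and 14.19 at the probe that holds the poly(A) signal (difference -0.77, SE 0.21, adjusted p = 0.0259). This call was lost in 10 of 19 alternatives, among them the 75th percentile shift (-0.19, adjusted p = 0.486). At the probe further 5′ the controls read 8.76, 9.41, 8.04 and 9.33 and the silenced arrays 5.75, 5.69, 5.01 and 5.25. That probe was well above background on all control arrays and on no silenced array, so the silenced level is known only as a bound: it was at least 6.59-fold lower (difference as measured -3.46, adjusted p = 0.000435). For the bound each silenced array contributed either the probe's signal or the dimmest signal still well above background, whichever was higher.
Sf3b1, the subunit that holds the branch point and the target of several splicing inhibitors, gave -0.62 (SE 0.26, adjusted p = 0.115) at its brightest probe and fell by 0.84 at a probe across an exon junction nearer the 5′ end (SE 0.25, adjusted p = 0.0349). Sf3b2 fell by 1.04 at its 5′ probe (SE 0.22, adjusted p = 0.00838) and gave 0.27 at its brightest (SE 0.24, adjusted p = 0.476; 3 control values, 1 spot left out). Sf3a1 gave -0.13 (adjusted p = 0.692), and its sign turned with the 75th percentile shift (0.35) and cyclic loess (0.045). Sf3b3 gave -1.61 with an SE of 0.89, since silenced replicate 4 read 9.01 and the other silenced arrays 13.32 to 13.64; it did not pass (adjusted p = 0.222).
Sf3a3 is the gene with the single probe that rose. Its probe on a RefSeq transcript gave -0.35 (SE 0.22, adjusted p = 0.274). A probe on 1 Ensembl transcript rose from 5.83, 6.23, 6.84 and 6.33 to 7.85, 7.65, 8.10 and 6.56 (difference 1.24, SE 0.35, adjusted p = 0.0321), and a probe on another fell by 1.29 (SE 0.40, adjusted p = 0.0439). The first was well above background on 3 control arrays and the second on 1 silenced array. The groups overlapped at the probe that rose, on silenced replicate 4, and the call was lost with the slide row as a block (adjusted p = 0.0806).

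Of the 10 SR protein genes tested, Srsf5 and Srsf2 fell and the others did not pass, where 13.2% of all genes fell; the median was -0.39. Srsf5 read 13.47, 13.61, 13.71 and 13.72 in the controls and 12.44, 12.38, 12.30 and 12.13 in the silenced arrays. The SD was 0.11 and 0.13 and the gap between the groups over 1 log2 unit (difference -1.32, SE 0.18, limma adjusted p = 0.00142). A probe across an exon junction fell by 1.06 (SE 0.30, adjusted p = 0.0308), and another, on an Ensembl transcript, gave -0.18 (adjusted p = 0.648). Srsf5 passed in all 19 alternatives, with differences from -1.38 to -0.80.
Srsf2, also called SC35 and a marker of nuclear speckles, read 14.77, 14.99, 13.95 and 15.06 against 13.54, 13.56, 13.22 and 13.48. Control replicate 3 was the lowest control, yet above every silenced array (difference -1.24, SE 0.27, adjusted p = 0.00992). Without that array the difference was -1.51, and by the methods' t-test the call was lost (adjusted p = 0.0732). Only 27 of the probe's 60 bases are placed on the genome in the files, so its position is partial.
Srsf1, the founding SR protein, cannot be called here. Its controls read 13.86, 14.45, 9.92 and 13.91 and its silenced arrays 12.92, 13.21, 12.97 and 11.02, and the fit gave -0.51 (SE 0.93, adjusted p = 0.74). Control replicate 3 stood far below the other controls; without it the difference was -1.55 (adjusted p = 0.0477), and without silenced replicate 4 it was 0.0080 (adjusted p = 0.996). The same control array was also the lowest control for Srsf3, Srsf6, Srsf9 and Srsf11 and, outside this family, for Snrpf, Lsm5 and U2af1. Srsf3, Srsf6 and Srsf7 gave -0.51, -0.33 and -0.45 (adjusted p = 0.127, 0.358 and 0.155), and all 3 turned positive with the 75th percentile shift. Srsf6 has another probe nearer the 5′ end, where the difference was lower by 0.63 (SE 0.19, limma adjusted p = 0.0234 for this gap). Srsf4 gave -0.099, Srsf10, known also as a splicing repressor, 0.085 and Srsf9 0.25, none of which passed. Srsf11 gave -0.079 at its 3′-most probe (adjusted p = 0.854), with falls elsewhere on the transcript that are given below.

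The PRP factors had 2 falls among 13 genes and a median of -0.51, and the groups did not overlap for 7 of them, beside the same 13.2% and 16.4% of all genes. Prpf38b, a close relative of the tri-snRNP activation factor Prpf38a, read 10.16, 10.62, 9.85 and 10.43 in controls and 8.52, 8.68, 8.59 and 7.85 in silenced arrays. It fell by 1.86 (SE 0.26, limma adjusted p = 0.00152), to 27.6% of the control mean, and passed in all 19 alternatives. Prpf38a itself gave -0.51 (SE 0.22, adjusted p = 0.123).
Prpf8, Prpf19 and Prpf31, which belong to the core of the particle, did not pass. Prpf8, the scaffold of the active site, gave 0.21 (SE 0.19, adjusted p = 0.454) and with the 75th percentile shift 0.73 (adjusted p = 0.00923). Prpf19, a ubiquitin ligase of the activated particle, gave -0.59 (SE 0.24, adjusted p = 0.108), and Prpf31, mutated in a retinal dystrophy, -0.31 (SE 0.20, adjusted p = 0.312), which turned positive with the 75th percentile shift. Prpf4 and Prpf4b did not pass at their brightest probe (0.22 and -0.024) but fell by 2.05 and 1.33 at another.

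No gene of the Sm and snRNP group or of the LSM group passed at its brightest probe. Among all genes 13.2% fell and 6.59% rose, and 16.4% and 6.67% were separated downward and upward. At single probes 4 of 22 tested fell in the Sm and snRNP group and 0 of 21 in the LSM group, against 18.4% of all probes. The 12 Sm and snRNP genes had a median of 0.015 and ran from -0.25 (Snrpd1) to 0.99 (Snrpf), and the groups overlapped for all 12. The value of Snrpf rests on control replicate 3, which read 11.01 where the other controls read 14.33 to 14.71. Snrpa and Snrpc, of the U1 particle, gave -0.099 (SE 0.21, adjusted p = 0.777) and 0.088 (SE 0.24, adjusted p = 0.8288). A second Snrpa probe fell by 1.77 (limma adjusted p = 0.00957), and passed with the 75th percentile shift (-1.39) and cyclic loess (-1.34). That call was lost by the methods' t-test (adjusted p = 0.0507). Snrpn, the paralog of Snrpb that is imprinted and best known from neurons, read 10.55, 10.60, 11.05 and 10.78 in the controls and 11.51, 11.72, 11.41 and 10.998 in the silenced arrays. This was the largest positive value with a small error (0.67, SE 0.22, adjusted p = 0.0568). It missed the threshold here and passed with the 75th percentile shift (0.999, adjusted p = 0.00258), cyclic loess (0.80, adjusted p = 0.00283), without silenced replicate 4 (0.81, adjusted p = 0.0151) and without control replicate 3 (0.76, adjusted p = 0.0377). A Snrpn probe nearer the 5′ end had the opposite sign and did not pass (-0.57, limma adjusted p = 0.2). The 13 LSM genes had a median of -0.23 and no non-overlapping gene. Lsm1, of the cytoplasmic decapping ring, gave -0.23 (SE 0.21, adjusted p = 0.464), Lsm2 -0.17 (SE 0.19, adjusted p = 0.549) and Lsm4 0.37 (SE 0.22, adjusted p = 0.26). Lsm4 passed as a rise with the 75th percentile shift (0.94, adjusted p = 0.00349), cyclic loess (0.58, adjusted p = 0.0101) and without silenced replicate 4 (0.53, adjusted p = 0.0411). Lsm14a, a P-body protein, gave -1.12, but silenced replicate 4 read 9.51 and the other silenced arrays 11.27 to 11.75 (SE 0.45, adjusted p = 0.104).

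Several genes gave different answers at different probes of 1 transcript, and in these the 5′ probe had the larger fall. Along Snrpb the probe at base 185 read 12.96, 13.30, 13.41 and 13.30 in controls and 12.11, 12.40, 11.68 and 11.97 in silenced arrays. The probe at base 289 read 13.23, 13.65, 13.63 and 13.52 against 12.39, 12.60, 11.85 and 12.31. At base 1046, where the sequence above holds a poly(A) signal, the values were 14.78, 14.82, 15.24 and 15.01 against 15.01, 15.08, 14.92 and 14.59. Both 5′ probes thus separated the groups, with falls of 1.20 and 1.22 (SE 0.22 each, limma adjusted p = 0.00474 and 0.0047), and the 3′ probe did not (-0.060, SE 0.20, adjusted p = 0.866).
Srsf11 gave a graded series along its RefSeq transcript. The difference was -1.78 at base 355 (SE 0.32, adjusted p = 0.00476), -1.24 at base 806 (SE 0.23, adjusted p = 0.00565), -0.67 at base 1176 (SE 0.29, adjusted p = 0.129) and -0.079 at base 2477 (SE 0.25, adjusted p = 0.854). A probe on an Ensembl transcript, which lies on the genome between those at bases 355 and 806, departed from this grading (-0.55, SE 0.29, adjusted p = 0.205). On the 5′-most probe the controls read 11.80, 11.75, 10.81 and 11.95 and the silenced arrays 10.10, 10.27, 9.61 and 9.20. No silenced array reached the lowest control, which was replicate 3. Prpf39, the mammalian relative of a yeast U1 protein, gave -1.71 at base 957 (SE 0.33, adjusted p = 0.00592), -1.32 at base 2454 (SE 0.29, adjusted p = 0.0102) and -0.67 at base 3926 (SE 0.27, adjusted p = 0.105). Its probe at base 957 was well above background on all control arrays but on only 1 silenced array, so the order of the first 2 values is not secure.

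**Figure D3:**
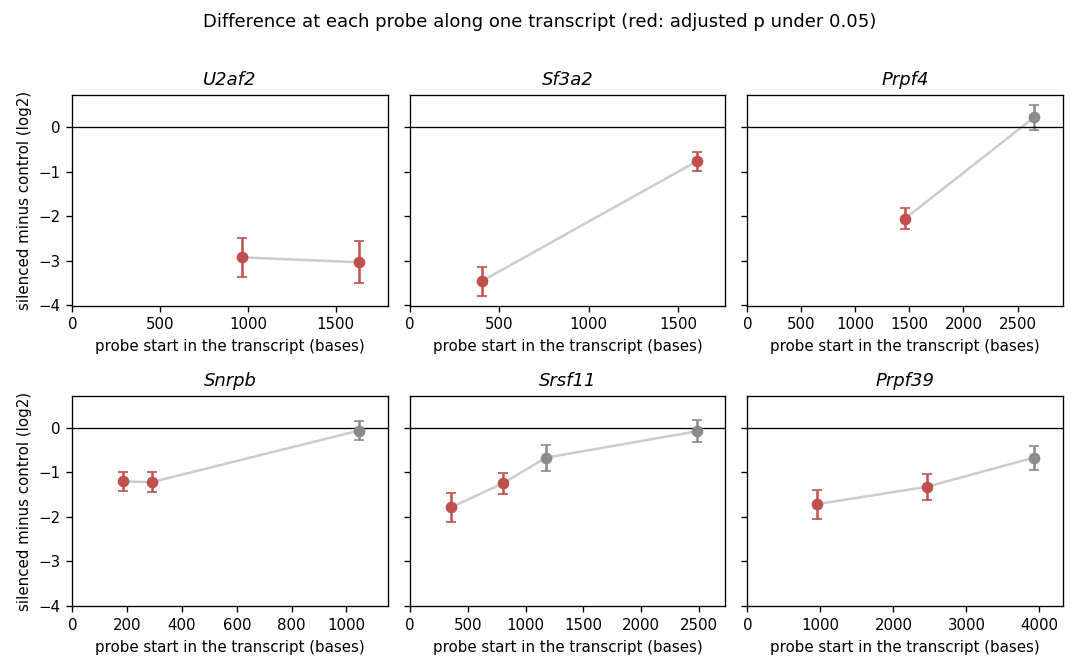
Difference between silenced and control arrays (log2, with SE) at each tested probe of 6 genes, against the probe's first base in its RefSeq transcript; red points had an adjusted p under 0.05. The 2 U2af2 probes both passed, the one nearer the 5′ end being well above background on 2 silenced arrays. In Sf3a2, Prpf4, Snrpb, Srsf11 and Prpf39 the 3′-most probe lies closest to 0; the 5′-most probes of Sf3a2 and Prpf39 were well above background on 0 and 1 of the silenced arrays.

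The difference at the 5′-most probe minus that at the 3′-most was fitted with limma for every gene with 2 such probes at least 60 bases apart. The pattern had been seen in these same values, so the fit counts it and is no independent test. The pairing given first was chosen after seeing the data. With both probes on 1 accession, ordered by their place in the transcript, 24 members could be tested, and at 10 the 5′ probe fell further and at none the 3′ probe. The 10 were Sf3a2, Prpf4, Srsf11, Sf3b2, Snrpn, Snrpb, Prpf39, Lsm4, Srsf6 and Snrpe. For Sf3a2 the gap as measured was -2.69 (SE 0.39, adjusted p = 0.00118), but with the silenced level of its 5′ probe taken at the bound given above it was -1.95, so no rank is read from it. Prpf4 gave -2.27 (SE 0.31, adjusted p = 0.000815) and Srsf11 -1.71 (SE 0.30, adjusted p = 0.00239). Snrpb gave -1.14 (SE 0.19, adjusted p = 0.00209), Snrpn -1.24 (SE 0.32, adjusted p = 0.013) and Sf3b2 -1.25 (SE 0.26, adjusted p = 0.00603). Lsm4 gave -0.997 (SE 0.16, adjusted p = 0.00196), where neither probe alone passed.
The same gap was seen over the whole array. Among all 3998 genes with such a pair the 5′ probe fell further at 42.0% and the 3′ probe at 4.03%, the member share being 41.7%, and the median gap was -0.57 for members and -0.61 for all genes. With 1 array left out the 5′ probe fell further at 7 to 13 members, and the 3′ probe at none (2.73% to 5.15% of all genes). The 7 were without control replicate 2 (31.0% of all genes) and without control replicate 4 (30.8%), and the 13 without control replicate 3 (52.5%). The pairing first planned ordered pairs by genome position, on any accession. With it 11 of 34 members had the larger fall at the 5′ probe and 3 at the 3′ probe, against 32.4% and 7.09% of 5969 genes. The 11 became 7 without control replicate 2 (22.5% of all pairs) and without control replicate 4 (22.1%), 15 without control replicate 3 (40.1%) and 6 by the methods' t-test (21.2%). The 3 were Lsm1, Sf3a3 (1.59, SE 0.25, adjusted p = 0.00167) and Snrpa (1.61, SE 0.33, adjusted p = 0.00651). In Lsm1 and Sf3a3 the 2 probes belong to different transcripts, and in Snrpa 1 probe is placed by only 5 of its bases, so the order is not secure; none of the 3 is among the pairs on 1 accession. Prpf4b, whose probes lie on different accessions, gave -1.31 (SE 0.36, adjusted p = 0.0201). Labelled cRNA was made with a kit that primes from the poly(A) tail, so a probe's distance from the 3′ end bears on its signal; the part that RNA length or labelling has in these gaps was not tested. Among the members' tested probes, the 18 that held a poly(A) signal (AATAAA or ATTAAA) had a median difference of -0.040, with 3 falls and the 1 rise, and the 89 others -0.51, with 21 falls. Over all tested probes of the array the medians were 0.17 for 4265 with such a signal, of which 6.64% fell and 10.2% rose, and -0.26 for 24384 without, of which 20.4% fell and 3.84% rose, so the direction of this contrast was the same over the array.

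**Figure D4:**
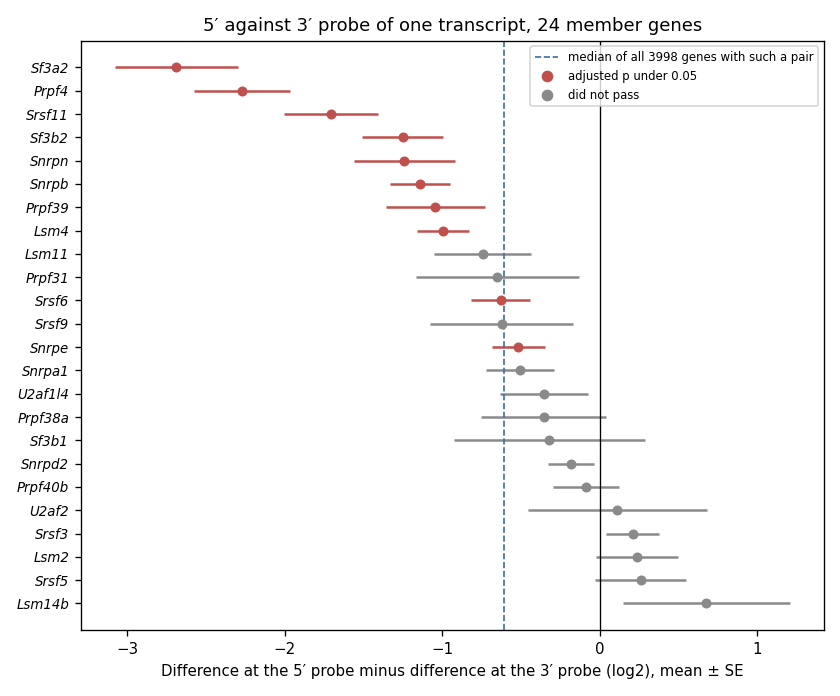
Difference at the 5′ probe minus difference at the 3′ probe (log2, with SE) for the 24 members with 2 tested probes on 1 accession. The 10 genes in red passed and all lie below 0, and the dashed line, at -0.61, is the median of all 3998 such genes, so that the members lie on both sides of it.

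Lists of other splicing genes also held falls and no rise in the scaling used. Of 60 other core spliceosome factors 14 fell and none rose, with a median of -0.28, where 13.2% of all genes fell and 6.59% rose. Among the falls were the helicases Dhx8 (-1.94, SE 0.34, limma adjusted p = 0.00435) and Dhx38 (-1.34, SE 0.23, adjusted p = 0.00374), which act late in splicing, Puf60 (-1.15, SE 0.21, adjusted p = 0.00516), which binds beside U2AF, and Phf5a (-0.76, SE 0.22, adjusted p = 0.035), a partner of Sf3b1. Of 26 hnRNP and related genes 6 fell and none rose, with a median of -0.46, among them the splicing repressor Ptbp1 (-0.92, SE 0.19, adjusted p = 0.00911). Of the 7 SR protein kinases and import genes tested 2 fell. Clk1 read from 11.25 to 12.05 in the controls and fell by 1.21 (SE 0.29, adjusted p = 0.0149), a call lost with the slide row as a block (adjusted p = 0.0772) and by the methods' t-test (adjusted p = 0.0536). Srpk1 fell by 1.02 (SE 0.31, adjusted p = 0.0385), a call lost in most alternatives, among them both other scalings, the slide row block (adjusted p = 0.0834), the replicate block (adjusted p = 0.0527), the methods' t-test (adjusted p = 0.137) and without silenced replicate 4 (adjusted p = 0.0626). Clk2, Clk3, Clk4, Srpk2 and Tnpo3 gave 0.16, 0.053, -0.39, 0.049 and -0.22 and did not pass. Srpk3 was not bright enough to test. With the 75th percentile shift 15 genes of the 3 lists rose and 11 fell (31.9% and 9.79% of all genes), and with cyclic loess 6 rose and 20 fell (24.4% and 13.5%). The 22 falls in the 3 lists became 6 with the slide row as a block (5.52% of all genes fell), 14 with the replicate block (9.03%) and 11 by the methods' t-test (7.51%); there were 12 without control replicate 2 (7.02%) and without control replicate 4 (6.88%), and 14 without silenced replicate 1 (9.20%).

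Promoters are given as background to the members, from RefSeq (GRCm38.p6), as 250 bases before and 50 after each start. An entry was found for 51 of the 61 genes, and for 27025 genes in all, each motif being searched on both strands. The ETS core CCGGAAG stood in 37.3% of the members' promoters and 9.93% of all. The E-box CACGTG stood in 7.84% and 8.09%, and CCAAT in 43.1% and 41.1%. No motif contains another. Members with and without the ETS core had median differences of -0.24 and -0.17. Of the 4 genes that fell and have an entry, Srsf5 and Sf3a2 hold it and Prpf38b and Srsf2 do not. The 250 bases before the start are shown for these 2, with the match on either strand in capitals; the matches begin 90 and 23 bases before the start in Srsf5 and 76 in Sf3a2. A match is a description of letters only.
Srsf5 (chr12:80945249-80945498, plus strand): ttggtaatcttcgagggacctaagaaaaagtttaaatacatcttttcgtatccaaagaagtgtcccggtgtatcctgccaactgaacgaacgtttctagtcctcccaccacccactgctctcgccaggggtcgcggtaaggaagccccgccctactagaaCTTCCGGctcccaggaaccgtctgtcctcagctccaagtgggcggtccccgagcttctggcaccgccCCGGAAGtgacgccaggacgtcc
Sf3a2 (chr10:80798485-80798734, plus strand): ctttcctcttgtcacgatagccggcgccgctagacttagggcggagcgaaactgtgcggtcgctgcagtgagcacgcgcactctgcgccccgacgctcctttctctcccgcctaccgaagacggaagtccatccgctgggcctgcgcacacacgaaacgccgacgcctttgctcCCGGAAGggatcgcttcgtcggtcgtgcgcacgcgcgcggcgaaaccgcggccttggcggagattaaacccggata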

How the data were processed

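C2C12 RNA was labelled with Cy3 by a Low Input Quick Amp kit and hybridised to Agilent arrays. Per the file headers and labels, the authors deposited scanner output: processed signal intensity per spot, background-subtracted by Agilent Feature Extraction (12.0.0.7 in the headers, 10.7.3.1 in the submitters' notes), with probe positions on mm9, and a series table of intensities from the same arrays, used as an alternative. Its columns rank the spots as the processed signal does but share 1 median (52.9), so they were already normalized between arrays. The study's methods name quantile normalization between arrays, masking of spots not positive and significant, and averaging of equal probe names. These steps were also taken here. Here spots not positive and significant, outlier spots and controls were left out, intensities were quantile-normalized and taken to log2, and spots of 1 probe were averaged (R 4.3.3, limma 3.58.1). Probes with at least 3 values in each group of 4 (28649) were tested silenced against control with lmFit and eBayes, with Benjamini-Hochberg adjustment over all of them at 0.05. Genes were read at their brightest tested probe, with p-values adjusted over all probes. Pairs of probes were fitted over all genes that had one.

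Named genes were up to 10 falls and 10 rises of largest size, a list of landmark genes, up to 8 called pairs, the SR kinases, and probes seen in 1 group only. The results of 1 member are counted in the totals but not reported here. The members, gene lists and tests were chosen with earlier results of these data known. The fit was tested on simulated data in which 200 of 28649 probes were changed. It recovered 58% of differences of 2 and 15% of 1 on the log2 scale, with 2 false calls of 75. In the data 1373 probes rose and 5269 fell, which makes the adjusted threshold less strict there. These recovery rates therefore do not apply to the calls above. All 8 arrays were on 1 slide; controls 1, 2 and 3 and silenced replicate 1 lay in row 1 and the others in row 2, so row and group are partly confounded, and values are given with the row as a block and within rows. Precision is limited by the number of arrays. Alternatives were other scalings, background correction, masking, blocks, priors, a t-test, and leaving out each array. The t-test was two-tailed with unequal variance, as a supplementary figure legend of the study gives for coding genes on these arrays. Here it was used with Benjamini-Hochberg adjustment and is called the methods' t-test.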

Additional observations from a re-analysis of the deposited data

Results flagged for a closer look

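In 90 sets of 4 arrays examined for the named genes, 11 held an array that stood apart from the other 3 by Dixon's test at the 95% level, which flags about 1 set in 20 by chance; 6 of the 11 were on control replicate 3. On that array Srsf1 read 9.92 with the next control at 13.86, and Clk4 read 10.23 with the next at 11.48. Srsf11 was also low there, at 12.33 on its 3′-most probe (next 12.80) and 10.81 on its 5′-most (next 11.75). Clk1 was high there, at 12.05 (next 11.29), as was Sf3b1, at 12.63 (next 12.23). On control replicate 1 Lsm4 read 13.52 (next 13.72) and Srpk2 10.12 (next 10.67). Among the silenced arrays, replicate 4 was low for Srsf1, at 11.02 (next 12.92), and for Sf3a3, at 13.21 (next 13.73), and replicate 3 was high for Prpf8, at 15.83 (next 15.51).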

How the results depend on the processing

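With the 75th percentile shift 18 member probes rose, against 24.7% of all probes. In the same setting 13 member genes rose, 15 other splicing genes rose and 11 fell, and the member median was 0.25. Of all genes 31.9% rose and 9.79% fell. Genes that had not passed turned positive there: Lsm1 0.18, Tnpo3 0.30, Sf3a3 0.24, Prpf31 0.26, Srsf1 0.055, Sf3a1 0.35, Clk4 0.0029, Srsf11 0.40, Srsf3 0.053, Srsf7 0.14, Lsm2 0.43, Srsf6 0.23, Snrpb 0.53, Prpf4b 0.34 and Snrpa 0.49. With cyclic loess (18.9% of all probes and 24.4% of all genes risen) 6 member probes, 3 member genes and 6 other splicing genes rose. There Sf3a1 (0.045), Srsf11 (0.10), Lsm2 (0.064), Snrpb (0.12), Prpf4b (0.16) and Snrpa (0.13) turned positive. With no masking of dim spots (8.82% of all probes and 12.95% of all genes risen) 7 member probes, 4 member genes and 6 other splicing genes rose. In that setting 5 pairs fell further at the 3′ probe (5.87% of all pairs), and Sf3a1 (0.034), Srsf11 (0.087), Lsm2 (0.019), Snrpb (0.11), Prpf4b (0.20) and Snrpa (0.084) turned positive. The series table (9.86% of all probes and 14.5% of all genes risen) gave 7 member probes, 4 member genes and 7 other splicing genes that rose and 5 such pairs (5.86%). It put Sf3a1 at 0.016, Srsf11 at 0.068, Snrpb at 0.083 and Snrpa at 0.058, and gave no value for Pvt1. With only spots well above background 1 member gene rose and 14 fell, and Srpk2 (-0.016) and Clk3 (-0.00021) turned negative. Of all genes 7.56% rose and 18.7% fell there. Normexp background correction gave 2 member probes and 1 member gene that rose and 11 genes that fell (7.96% and 14.6% of all genes), and the robust trended prior 2, 1 and 12 (9.21% and 14.9%), with 1 other splicing gene risen. Of all probes 5.50% rose with normexp and 6.47% with the robust trended prior. Averaging a gene's probes gave 11 member genes that fell, against 13.7% of all genes. The methods' t-test gave 0 member probes risen and 14 fallen, against 1.98% and 9.96% of all probes. It gave 4 member genes (7.51% of all genes) and 11 other splicing genes fallen and 6 pairs fallen further at the 5′ probe (21.2% of all pairs). Unadjusted it gave 16 member genes lower and 1 higher at p under 0.05, against 18.6% and 11.05% of all genes. With the slide row as a block 0 member probes rose (1.86% of all probes) and 6 other splicing genes fell (5.52% of all genes). Pairs on 1 accession, an alternative chosen after seeing the data, gave 0 pairs fallen further at the 3′ probe, also with cyclic loess (0) and the row block (0).

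Same-numbered samples had correlations of -0.043, 0.19, 0.22 and 0.057, so the numbers were not taken as pairs; not every sample correlated best with its own number. With the replicate block 14 other splicing genes fell, and 5 member genes against 7 (9.03% of all genes).

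Leaving out 1 array at a time gave 0 to 5 member probes risen (2.35% to 12.04% of all probes). It gave 0 to 2 member genes risen (3.19% to 16.0% of all genes) and 5 to 8 fallen (6.88% to 13.4%). Of the other splicing genes 0 to 2 rose and 12 to 28 fell. Pairs fallen further at the 5′ probe numbered 7 to 15 (22.1% to 40.1% of all pairs), 15 being without control replicate 3. On 1 accession it was 7 to 13 at the 5′ probe (30.8% to 52.5% of all such pairs) and 0 at the 3′ probe (2.73% to 5.15%). The differences ran from -0.064 to 0.24 for Snrpc, -1.55 to 0.0080 for Srsf1, -0.20 to 0.011 for Sf3a1, -0.027 to 0.25 for Srsf10, -0.26 to 0.053 for Srsf11, -0.11 to 0.27 for U2af1, -0.10 to 0.24 for Srpk2, -0.043 to 0.21 for Clk3, -0.12 to 0.045 for Snrpb and -0.24 to 0.27 for Prpf4b. The cause of these shifts was not tested. Of the 6 genes described that fell, Prpf38b and Srsf5 passed in all 19 alternatives run, U2af2 and Srsf2 in all but the methods' t-test, Sf3b4 in 14 and Sf3a2 in 9.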
